A study of Mus musculus with 6 samples.

Results

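The expressed solute carriers are the genes whose symbol starts with Slc and a family number and whose raw counts averaged at least 50 over the 6 libraries. They numbered 183 of the 373 symbols of that pattern and of the 24393 genes listed, after 4 symbols that were set aside by name. The members were selected on that mean count, so their expression as such is not a result. Just below the limit lay Slc41a3, Slc6a17 and Slc26a10, with mean counts of 46.7, 47.2 and 49.8, and just above it Slc25a53, Slc1a1 and Slc9a7, with 52.0, 54.2 and 54.8. In the CONTROL libraries alone 172 of the 183 reached the same mean and in the HOXA13 libraries alone all 183 did, so 11 members entered through their HOXA13 counts. These 11, which were Slc6a14, Slc52a3, Slc37a1, Slc1a1, Slc23a3, Slc6a9, Slc9a7, Slc9b1, Slc18a1, Slc25a53 and Slc43a3, had to have more counts in HOXA13, and counts and medians over the members are given as descriptions for that reason.

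The libraries were made from KH2 mouse embryonic stem cells, a C57/BL/6 line built for doxycycline-inducible expression. In the HOXA13 group, a FLAG-tagged human HOXA13 gene with its intron had been placed in the line by FLPe recombination, and targeted clones were selected with hygromycin. Each group had 3 libraries, which the study calls biological replicates, without saying how many clones they came from. Cells of both groups were differentiated on M15 feeder cells, a mesoderm-derived line, in medium with Activin-A, bFGF, CHIR and Noggin. Doxycycline (1.25 µg/ml) was added from day 4 to turn on the transgene. On day 6 the CXCR4+/E-cadherin+ fraction was sorted, and it was kept with doxycycline for 1 further day. The labels give this protocol for all samples and do not say whether CONTROL cultures received doxycycline or which construct they carried. The comparison asks which genes differ when HOXA13 is expressed in cells directed to definitive endoderm, the layer from which the gut lining forms.

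Solute carriers are membrane proteins that move sugars, amino acids, nucleotides, vitamins, metals, ions and metabolites across cell and organelle membranes, mostly by facilitated diffusion, exchange, or cotransport with sodium or protons. They are numbered in families by sequence, and members of a family often share a kind of substrate. In the gut epithelium, carriers of the apical and basolateral membranes take up nutrients from the lumen and pass them to the blood, while the mitochondrial and Golgi carriers serve nearly every cell. The 183 members fell into 41 families, 9 of them with 1 member, and were grouped into transport classes by family number. The grouping by number puts some genes beside unlike substrates, such as Slc5a5, the iodide transporter, among the sugar carriers. The products of 3 members, Slc9a3r2, Slc7a6os and Slc4a1ap, are not carriers.

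Total counts ran from 12279884 to 17331638 per library, and levels are given in CPM, the count divided by the normalised library size. The smallest number read as a level, 3 counts, came to 0.176 to 0.240 CPM. A row under the human identifier ENSG00000106031, which the files do not pair with a symbol, had 0 counts in every CONTROL library and 2497, 7666 and 6572 in the HOXA13 libraries. The mouse gene Hoxa13 had at most 10 counts in any library. CONTROL 2 stood apart from CONTROL 1 and CONTROL 3. Summed over 10 epithelial markers it held 7573 CPM against 2137 and 5334, and over 9 pluripotency markers 1379 CPM against 118 and 200.1. Over 15 mesenchymal and feeder markers it held 2810 CPM against 10082 and 8440. In HOXA13 these sums ran from 9483 to 11316, from 438 to 739 and from 2350 to 5834 CPM, and 8 of the 10 epithelial markers were higher in every HOXA13 library than in every CONTROL library. Within the mesenchymal and feeder sum, Vim was at 4351, 548 and 3576 CPM in CONTROL, against 155, 722 and 481 CPM in HOXA13. Fn1 was at 3374, 2033 and 3728 CPM in CONTROL, against 1997, 4631 and 4976 CPM in HOXA13. The 10 definitive endoderm markers summed to between 127 and 196 CPM in CONTROL and between 83.9 and 124 CPM in HOXA13, with Sox17 at no more than 4.84 CPM and Cer1 at 0 in every library. Much of that sum was Eomes, at 89.0, 49.0 and 111 CPM in CONTROL, against 24.4, 41.9 and 33.0 CPM in HOXA13. Eomes was the only 1 of the 10 lower without overlap, and 0 were higher without overlap. Of the visceral endoderm markers Afp and Ttr were at 0 throughout. Fewer cells of a type and less RNA per cell cannot be told apart in such bulk libraries, and the part of these cell types in the differences below was not tested.

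Promoter sequence is shown for 4 carriers, picked by their values or by a motif match. Slc6a14 had the highest fold change, Slc4a8 had the lowest p-value, and Slc46a1 and Slc39a10 were the carriers with no overlap between the groups whose RefSeq promoter held a HOX13-type motif. The motifs searched were CAATAAA and TCGTAAA, letter strings known to be bound by proteins of the HOX13 group, on both strands (TTTATTG and TTTACGA), with no overlap between them. Each line gives the 250 bases before a RefSeq transcription start on build GRCm38.p6, which is not the mm9 build of the counts, 5′ to 3′ on the strand of the gene, with motif matches in capitals.
Slc6a14, chrX:21714650-21714899, plus strand: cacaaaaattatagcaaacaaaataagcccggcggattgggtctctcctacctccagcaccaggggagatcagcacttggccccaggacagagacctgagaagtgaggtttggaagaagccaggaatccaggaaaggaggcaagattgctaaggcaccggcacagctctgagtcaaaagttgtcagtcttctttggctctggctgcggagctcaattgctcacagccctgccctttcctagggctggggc
Slc4a8, chr15:100761497-100761746, plus strand: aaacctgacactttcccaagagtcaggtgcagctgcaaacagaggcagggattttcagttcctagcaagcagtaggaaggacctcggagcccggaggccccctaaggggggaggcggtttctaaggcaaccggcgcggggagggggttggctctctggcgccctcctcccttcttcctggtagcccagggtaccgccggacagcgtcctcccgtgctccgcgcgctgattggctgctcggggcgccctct
Slc46a1, chr11:78465451-78465700, plus strand: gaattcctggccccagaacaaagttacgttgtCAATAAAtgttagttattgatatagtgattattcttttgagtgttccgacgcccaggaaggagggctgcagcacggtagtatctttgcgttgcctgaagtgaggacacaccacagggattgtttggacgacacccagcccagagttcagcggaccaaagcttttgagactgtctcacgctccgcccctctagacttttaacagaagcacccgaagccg
Slc39a10, chr1:46925777-46926026, minus strand: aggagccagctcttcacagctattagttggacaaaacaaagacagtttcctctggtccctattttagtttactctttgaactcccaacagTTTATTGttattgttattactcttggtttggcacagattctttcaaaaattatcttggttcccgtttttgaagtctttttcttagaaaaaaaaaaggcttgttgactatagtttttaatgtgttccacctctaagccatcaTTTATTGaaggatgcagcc
A second RefSeq start of Slc39a10 held no match. RefSeq promoters were matched for 140 of the 183 members, as 189 windows of 250 bases before and 50 after a start. CAATAAA was found in 4 of these windows, which is 2.12%, against 4.60% of the 32851 windows of all genes. Those 4 windows belonged to Slc25a28, Slc39a10, Slc46a1 and Slc5a5. TCGTAAA was found in none of the windows of members and in 0.597% of all windows. The members' windows had a median GC content of 61.3% against 52.7% for all windows. A match is a string of letters and not a measured binding site.

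No solute carrier passed the adjusted threshold of the main test, and 10 passed that of a less strict one. With edgeR's quasi-likelihood test and Benjamini-Hochberg adjustment over all 13600 genes tested, 0 of the 183 had an adjusted p under 0.05, where 42 genes, or 0.309%, did among all tested. The lowest adjusted p of a member was 0.0747. At an unadjusted p under 0.05 stood 31 members, 20 higher and 11 lower in HOXA13, which is 16.9% against 14.1% of all genes tested. DESeq2, the tool used by the study, called 10 of the 181 members it gave an adjusted p, 7 higher and 3 lower. That is 5.52% of the members against 5.07% of all genes that DESeq2 tested. The share of all genes called was 15.4% with limma voom and quality weights, where 21.3% of the members were called, 0.779% with the method introduced with edgeR 4, against 0.546%, and 0.921% with no filter, against 1.09%. These 10 were Slc4a8, Slc40a1, Slc46a1, Slc30a1, Slc52a3, Slc12a2 and Slc25a37, all higher, and Slc6a6, Slc12a7 and Slc39a6, all lower. Of these, Slc12a2, Slc25a37 and Slc39a6 are named because of that call, after their values were seen.

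The median over the members was 0.01 and over all genes tested -0.01, and 95 members, or 51.9%, had a value above 0 against 48.8% of all genes. A change of at least 1 on the log2 scale was found in 21 members, 17 higher and 4 lower, which is 11.5% against 14.4% of all genes. The values ran from -1.40 for Slc39a6 to 4.15 for Slc6a14. In 24 members, or 13.1%, every HOXA13 library was above every CONTROL library, where 11.5% of all genes tested did so. In 12 members, or 6.56%, every HOXA13 library was below every CONTROL library, where 8.52% of all genes did so. Both shares lay near those of all genes. The 24 and the 17 both include Slc6a14, Slc52a3 and Slc37a1, and the 17 also include Slc1a1. These entered through their HOXA13 counts, so the counts of higher members are descriptions only.

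**Figure D1:**
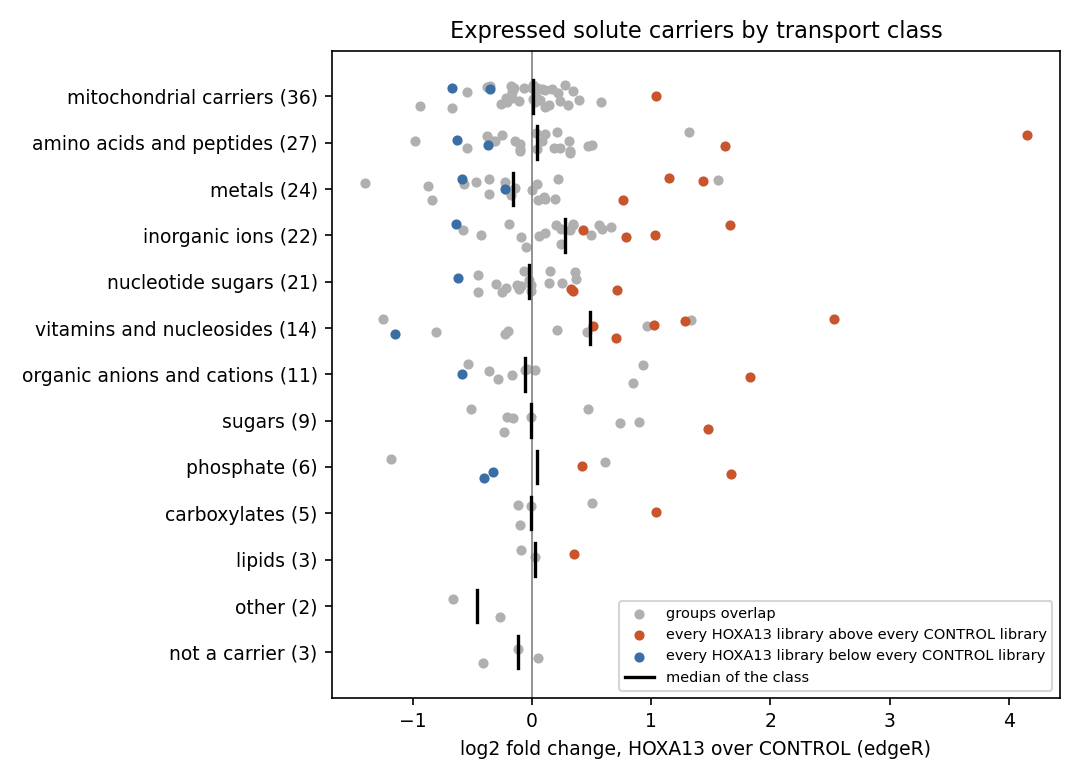
Each point is 1 solute carrier, placed by its edgeR log2 fold change (horizontal axis, HOXA13 over CONTROL, 3 libraries each) within its transport class (vertical axis, number of members in parentheses); black bars are class medians, and colour marks carriers whose groups did not overlap. Class medians run from -0.47 to 0.48, an order that shifts when CONTROL 2 is left out, and the point at 4.15 is Slc6a14.

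The amino acid and peptide carriers were 27 members with a median log2 fold change of 0.04, of which 15 were higher and 12 lower. That median was 0.19 without CONTROL 2 and -0.06 without CONTROL 1, so it has no settled sign. Slc6a14, a sodium- and chloride-dependent carrier of neutral and basic amino acids (mm9, chrX:21292022-21319481, plus strand), had the highest log2 fold change of all members and was 1 of the 11 that entered through their HOXA13 counts. It was at 0, 2.32 and 2.02 CPM in CONTROL 1, 2 and 3 and at 12.8, 24.4 and 39.5 CPM in the HOXA13 libraries. Every HOXA13 library was thus well above the highest CONTROL library, and HOXA13 3 was the highest. The means were 1.45 ± 1.26 and 25.6 ± 13.4 CPM (SD, n = 3 each), giving a log2 fold change of 4.15 (SE 1.01, adjusted p 0.130 in edgeR), which was 3.54 without CONTROL 1 and 4.65 without CONTROL 2. Slc15a2, which takes up short peptides with protons, was also higher without overlap. It was at 6.17, 9.67 and 2.92 CPM in CONTROL, against 29.9, 14.5 and 13.5 CPM in HOXA13, a log2 fold change of 1.62 (SE 0.51, adjusted p 0.212 in edgeR).

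In the same class, Slc6a6 and Slc7a6 were lower without overlap. Slc6a6, the taurine transporter (mm9, chr6:91634061-91709057, plus strand), was at 256, 208 and 283 CPM in CONTROL, against 156, 157 and 169 CPM in HOXA13. The 3 HOXA13 values were nearly equal and all lay below the lowest CONTROL value. The log2 fold change was -0.63 with an SE of 0.16, and the adjusted p was 0.148 in edgeR and 0.0261 in DESeq2. Slc7a6, a light chain of the heteromeric exchangers of basic amino acids, was at 115, 123 and 110.1 CPM in CONTROL, against 98.8, 86.9 and 83.9 CPM in HOXA13, with a log2 fold change of -0.37. Slc3a2, the heavy chain that brings such light chains to the membrane, was at 355, 432 and 376 CPM in CONTROL, against 265, 356 and 275 CPM in HOXA13, so that HOXA13 2 lay just above CONTROL 1 and the groups overlapped. Slc38a2, a sodium-coupled carrier of small neutral amino acids and the member of the class with the most reads, gave 388, 777 and 519.5 CPM in CONTROL, against 589.7, 489 and 487 CPM in HOXA13, so the groups overlapped.

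The vitamin and nucleoside carriers, 14 members, had a median of 0.48, which was 0.27 with the chromosome offset described below, with 9 higher and 5 lower, 5 of them higher and 1 lower without overlap (11.5% and 8.52% of all genes tested). Slc46a1, the proton-coupled folate transporter of the upper gut (mm9, chr11:78279199-78285447, plus strand), was at 22.1, 21.7 and 14.3 CPM in CONTROL, against 39.1, 49.6 and 52.0 CPM in HOXA13. The groups were well apart, at 19.4 ± 4.38 and 46.9 ± 6.86 CPM (SD, n = 3 each). Its log2 fold change was 1.28 (SE 0.25), with an adjusted p of 0.0899 in edgeR and 0.00152 in DESeq2. Slc52a3, a riboflavin transporter that also entered through its HOXA13 counts, was at 0.355, 0.640 and 3.45 CPM in CONTROL, against 8.91, 7.97 and 8.91 CPM in HOXA13. Its HOXA13 values were close together and its CONTROL values were low, with CONTROL 3 above the others. The log2 fold change was 2.53 (SE 0.83), with an adjusted p of 0.228 in edgeR and 0.0371 in DESeq2, and it ran from 2.04 to 4.08 when each library was left out, the highest without CONTROL 3. The other riboflavin carrier among the members, Slc52a2, had a log2 fold change of -0.23.

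Slc19a2, a thiamine transporter with the most reads of the class, was at 207, 207 and 189 CPM in CONTROL, against 258, 345 and 254 CPM in HOXA13, a log2 fold change of 0.51 (SE 0.17, adjusted p 0.239 in edgeR) that was 0.32 without HOXA13 2 and -0.07 with the chromosome offset. The choline carrier-like family Slc44, looked at after its values were seen, had 3 members, all higher, with log2 fold changes of 1.02 for Slc44a1, 0.70 for Slc44a2 and 1.33 for Slc44a4. The groups did not overlap for Slc44a1 and Slc44a2, while for Slc44a4 CONTROL 2, at 11.7 CPM, lay within the HOXA13 range of 6.67 to 19.4 CPM. Without CONTROL 2 the log2 fold change was 1.68 for Slc44a1 and 3.83 for Slc44a4, and the family median went from 1.02 to 1.68. Of the 4 nucleoside carriers of family Slc29, 3 had log2 fold changes below 0, but that of Slc29a1, at 169 CPM in CONTROL 2 and 23.6 to 57.6 CPM in HOXA13, was -0.81 with all libraries and 1.54 without CONTROL 2. Slc29a4, a carrier of monoamines and adenosine (mm9, chr5:143178055-143198443, plus strand), was at 23.6, 12.6 and 29.0 CPM in CONTROL, against 8.30, 10.9 and 10.1 CPM in HOXA13. That gave a log2 fold change of -1.15 (SE 0.35, adjusted p 0.199 in edgeR), with CONTROL 2 the library nearest to HOXA13. Slc29a3, a lysosomal nucleoside carrier, had a log2 fold change of -1.25 with overlap between the groups, and the family median was -0.98, or -0.50 without CONTROL 2.

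Among the 24 metal carriers, 11 were higher and 13 lower, with a median of -0.16, or -0.05 without CONTROL 3 and -0.08 without CONTROL 2. Slc40a1, ferroportin, the iron exporter of the basolateral membrane (mm9, chr1:45964915-45982439, minus strand), was at 17.7, 20.9 and 15.9 CPM in CONTROL, against 65.2, 33.2 and 48.3 CPM in HOXA13. All 3 HOXA13 values were above the CONTROL values, with HOXA13 2 the nearest. The means were 18.2 ± 2.51 and 48.9 ± 16 CPM (SD, n = 3 each), a log2 fold change of 1.43 (SE 0.28), with an adjusted p of 0.0909 in edgeR and 0.00119 in DESeq2. With the chromosome offset it was 0.84. Slc11a2, which takes up iron from the gut lumen, overlapped between the groups, at 59.1, 50.1 and 69.1 CPM in CONTROL, against 66.9, 63.0 and 61.4 CPM in HOXA13. Slc25a37, mitoferrin, which carries iron into mitochondria and stands in the mitochondrial class, was at 29.8, 44.1 and 32.1 CPM in CONTROL, against 60.2, 79.9 and 77.6 CPM in HOXA13. It thus lay higher without overlap, at a log2 fold change of 1.04 (SE 0.22), for which the adjusted p was 0.102 in edgeR and 0.00613 in DESeq2. Slc25a37 lies on chromosome 14, and with the chromosome offset its log2 fold change was 0.71.

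The zinc carriers had log2 fold changes on both sides of 0. Slc30a1, the zinc exporter of the plasma membrane, was at 29.4, 45.0 and 26.0 CPM in CONTROL, against 53.3, 87.5 and 81.4 CPM in HOXA13, a log2 fold change of 1.15 (SE 0.28) with an adjusted p of 0.136 in edgeR and 0.0133 in DESeq2, and the log2 fold change was 0.56 with the chromosome offset. Slc39a10, a zinc importer, was at 83.2, 86.2 and 87.4 CPM in CONTROL, against 191, 121 and 123 CPM in HOXA13, so HOXA13 1 was the highest library and the groups did not overlap. Its log2 fold change was 0.76, or 0.50 without HOXA13 1 and 0.18 with the chromosome offset. Slc39a6, another zinc importer, had the lowest fold change of all members. It was at 245, 72.0 and 217 CPM in CONTROL, against 48.3, 77.1 and 76.3 CPM in HOXA13. CONTROL 2 lay among the HOXA13 libraries, and the log2 fold change of -1.40 (SE 0.43) had an adjusted p of 0.194 in edgeR and 0.0145 in DESeq2. Slc39a8, a zinc and manganese importer, was lower without overlap at low levels, from 5.25 to 8.56 CPM in CONTROL and 4.67 to 4.86 CPM in HOXA13. Slc39a7, a zinc carrier of the endoplasmic reticulum with the most reads of the class, had a log2 fold change of -0.22. That value ran from -0.40 to -0.13 when each library was left out. Of its exon bases, 80.1% are shared with another gene model on the same strand, so its count is uncertain.

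The inorganic ion carriers were 22 members, 16 of them higher, with a median of 0.28, which was 0.13 without CONTROL 2 and 0.12 without HOXA13 2. Slc4a8, a sodium-driven chloride-bicarbonate exchanger (mm9, chr15:100592178-100654399, plus strand), was at 6.10, 6.72 and 7.42 CPM in CONTROL, against 25.4, 21.3 and 17.3 CPM in HOXA13. The CONTROL libraries were alike and the lowest HOXA13 library was far above them. The means were 6.75 ± 0.663 and 21.4 ± 4.05 CPM (SD, n = 3 each), a log2 fold change of 1.66 (SE 0.29), with an adjusted p of 0.0747 in edgeR and 0.000193 in DESeq2. Leaving out each library in turn kept its log2 fold change between 1.5 and 1.77. Slc12a2, which brings sodium, potassium and chloride into the cell, was at 59.4, 99.1 and 64.9 CPM in CONTROL, against 138, 162 and 156 CPM in HOXA13, a log2 fold change of 1.03 (SE 0.22) with an adjusted p of 0.102 in edgeR and 0.00457 in DESeq2.

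Other potassium-chloride carriers did not share that direction. Slc12a7 (mm9, chr13:73870542-73954191, plus strand), which lets potassium and chloride out of the cell, was at 72.4, 69.2 and 70.7 CPM in CONTROL, against 41.0, 49.1 and 46.5 CPM in HOXA13. The replicates of each group were close together and the groups lay apart, at a log2 fold change of -0.64 (SE 0.17), for which the adjusted p was 0.150 in edgeR and 0.0384 in DESeq2. Slc12a4, of the same function and the most reads of the class, was at 296, 200.4 and 351 CPM in CONTROL, against 206, 297 and 292 CPM in HOXA13, with a log2 fold change of -0.09. Slc4a3, an anion exchanger, was at 12.1, 11.0 and 9.45 CPM in CONTROL, against 18.5, 18.3 and 19.5 CPM in HOXA13, a log2 fold change of 0.79 (SE 0.26, adjusted p 0.221 in edgeR), or 0.21 with the chromosome offset.

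**Figure D2:**
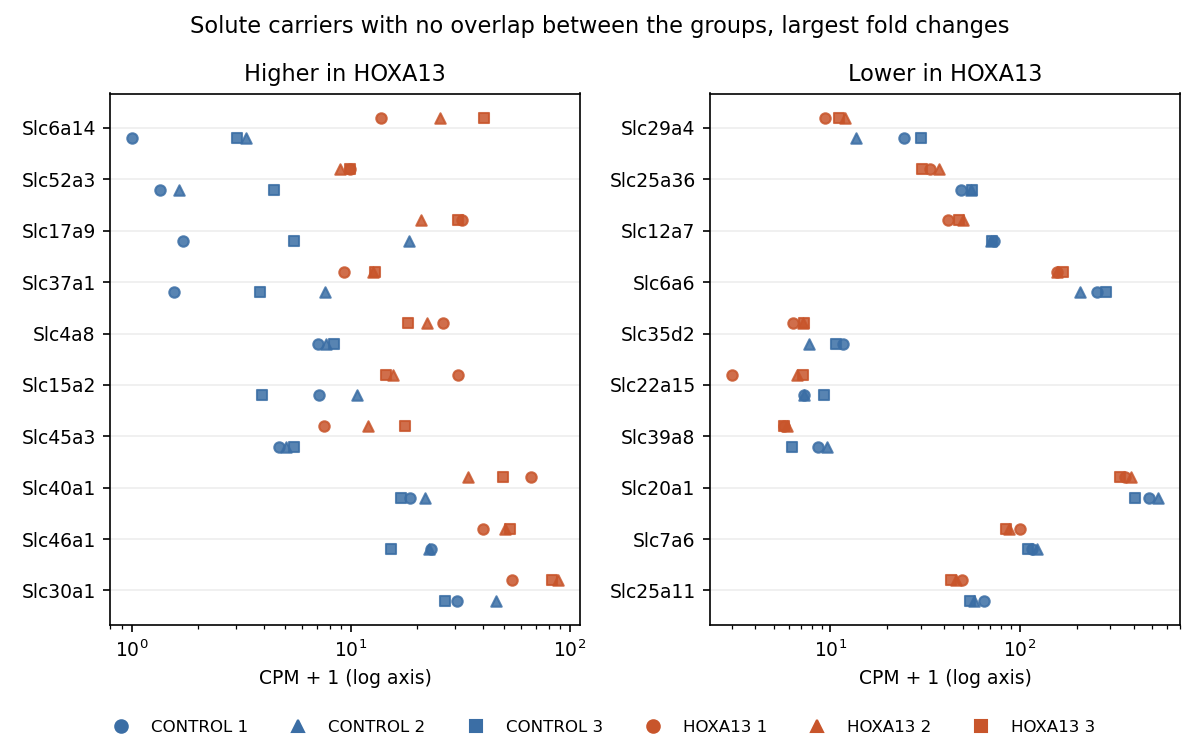
CPM + 1 on a log axis for each library of the 10 carriers with the largest higher values and the 10 with the largest lower values in HOXA13 among those with no overlap and a mean of at least 5 CPM; blue is CONTROL, orange is HOXA13, and the marker shape gives the replicate number. Slc6a14 has its CONTROL libraries at 0 to 2.32 CPM and its HOXA13 libraries at 12.8 to 39.5 CPM, whereas for Slc25a11, at the foot of the right panel, the groups lie between 53.8 and 63.4 CPM and between 42.3 and 48.5 CPM.

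The mitochondrial carriers, the 36 members of family Slc25, were the class with the most members, with 20 higher and 16 lower and a median of 0.01, which was between -0.10 and -0.04 when each library was left out and so has no settled sign. Slc25a4 and Slc25a5 exchange ADP for ATP across the inner membrane. Slc25a4 was at 824, 605 and 778 CPM in CONTROL, against 684, 641 and 718 CPM in HOXA13, and Slc25a5 ranged from 132 to 254 CPM and from 148 to 207 CPM. Slc25a3, the phosphate carrier, was at 669.6, 722 and 701 CPM in CONTROL, against 876, 645 and 742 CPM in HOXA13. The groups overlapped for all 3 of these abundant carriers. Slc25a36, a carrier of pyrimidine nucleotides, was lower without overlap, at 47.7, 54.2 and 55.0 CPM in CONTROL, against 32.7, 36.3 and 29.6 CPM in HOXA13, a log2 fold change of -0.67 (SE 0.19, adjusted p 0.166 in edgeR). Slc25a11, which exchanges oxoglutarate for malate, was lower by less, with a log2 fold change of -0.35, or -0.21 with the chromosome offset.

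The 21 members of family Slc35, most of them Golgi and endoplasmic reticulum carriers of nucleotide sugars, had a median of -0.03 with 8 higher and 13 lower, and the median was -0.20 without CONTROL 2 and 0.11 without CONTROL 1. Slc35d2 was at 10.7, 6.72 and 9.75 CPM in CONTROL, against 5.30, 6.15 and 6.24 CPM in HOXA13, a small gap between the groups, with a log2 fold change of -0.62 (SE 0.37). Slc35e4, with the most reads of the family, had a log2 fold change of -0.01.

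Of the 6 phosphate and sugar-phosphate carriers, Slc37a1 was at 0.567, 6.64 and 2.85 CPM in CONTROL, against 8.30, 11.6 and 11.9 CPM in HOXA13, a log2 fold change of 1.67 (SE 0.75, adjusted p 0.374 in edgeR) that was 2.62 without CONTROL 2. It too entered through its HOXA13 counts. Slc20a1, a sodium-phosphate cotransporter, was at 481, 539.5 and 406 CPM in CONTROL, against 359, 386 and 337 CPM in HOXA13, a log2 fold change of -0.40 (SE 0.16, adjusted p 0.319 in edgeR). The groups did not overlap for either. Of the 11 organic anion and cation carriers, Slc17a9, which loads nucleotides into vesicles, was at 0.709, 17.5 and 4.50 CPM in CONTROL, against 31.0, 19.9 and 29.8 CPM in HOXA13, with CONTROL 2 just under the lowest HOXA13 library and a log2 fold change of 1.83, or 3.35 without CONTROL 2. Slc22a15 was lower without overlap, from 6.24 to 8.25 CPM in CONTROL and 2.00 to 6.12 CPM in HOXA13, with a log2 fold change of -0.59, or -0.25 without HOXA13 1, and Slc22a23, with the most reads of the class, had a log2 fold change of 0.93 with overlap. Slc27a4, a fatty acid transport protein, had a log2 fold change of 0.35, with no overlap. Slc33a1, which brings acetyl-CoA into the endoplasmic reticulum, had one of -0.27, or -0.49 without CONTROL 2 and -0.17 without CONTROL 1 or CONTROL 3, and another gene model lies opposite 32.0% of its exon bases.

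Among the sugar carriers, Slc2a3, a high-affinity glucose transporter (mm9, chr6:122677827-122751658, minus strand), was at 486, 5763 and 1370 CPM in CONTROL 1, 2 and 3 and at 6094, 3780 and 4343 CPM in HOXA13. CONTROL 2 lay within the HOXA13 range, and CONTROL 1 and CONTROL 3 were far below it. Its log2 fold change was 0.90 (SE 0.74, adjusted p 0.666 in edgeR) with all libraries, 2.33 (adjusted p 0.00805 in edgeR) without CONTROL 2 and 0.38 without CONTROL 1. Per kilobase of exon, Slc2a3 was at 67.1, 795 and 189 CPM in CONTROL, against 841, 522 and 599 CPM in HOXA13. Slc25a4 was at 350.2, 257 and 331 CPM in CONTROL, against 291, 272 and 305 CPM in HOXA13 on the same scale. Slc2a3 thus had the higher level per length in CONTROL 2 and in every HOXA13 library, and Slc25a4 in CONTROL 1 and CONTROL 3. Slc2a3 alone made up most of the summed CPM of its class, which was 662, 6061 and 1551 in CONTROL and 6328, 4049 and 4619 in HOXA13. The summed CPM of all 183 members was 11927, 18107 and 13144 in CONTROL and 18703, 16019 and 16895 in HOXA13, so CONTROL 2 was within the HOXA13 range there too. That total contains the Slc2a3 values above, so it is not a separate instance and does not describe the other members.

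For some other widely known carriers of the named list, CONTROL 2 also lay apart from CONTROL 1 and CONTROL 3. Slc16a1, which moves lactate and pyruvate with protons, was at 82.6, 273 and 107 CPM in CONTROL, against 348, 295 and 309 CPM in HOXA13. Slc7a5, a light chain that brings leucine and other large amino acids into the cell, was at 107, 417 and 123 CPM in CONTROL, against 359, 206 and 240.3 CPM in HOXA13. Slc1a5, a glutamine transporter, was at 24.3, 84.2 and 26.7 CPM in CONTROL, against 66.2, 45.8 and 47.1 CPM in HOXA13. For each of the 3, CONTROL 1 and CONTROL 3 lay below all HOXA13 libraries while CONTROL 2 lay below them for Slc16a1 and above them for Slc7a5 and Slc1a5. Slc7a3, a carrier of basic amino acids, was at 2.48, 51.4 and 3.45 CPM in CONTROL, against 13.8, 19.6 and 14.9 CPM in HOXA13, so its log2 fold change was -0.25 with all libraries and 2.42 without CONTROL 2. Without that library the log2 fold change of Slc16a1 went from 1.04 to 1.72, of Slc7a5 from 0.32 to 1.20 and of Slc1a5 from 0.23 to 1.04, whereas without CONTROL 1 they were -0.04 for Slc7a5 and -0.09 for Slc1a5. Slc16a3, which exports lactate, was at 21.3, 52.8 and 18.5 CPM in CONTROL, against 29.4, 22.1 and 34.6 CPM in HOXA13, and 15.6% of its exon bases lie opposite another gene.

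CONTROL 2 was at least 2-fold above both other CONTROL libraries in 21 members, or 11.5%, against 9.79% of all genes tested, and at least 2-fold below both in 13 members, or 7.10%, against 11.3%. Among the 21, every HOXA13 library was above CONTROL 1 and CONTROL 3 in 19, or 90.5%. Of all genes chosen by CONTROL 2 in the same way, 69.3% did so. Among the 13, every HOXA13 library was below both in 10, or 76.9%, where 57.1% of all such genes were. The differences between these shares were not tested. Both sets were chosen for low or high values in CONTROL 1 and CONTROL 3, so these counts describe the libraries and say nothing particular to carriers. CONTROL 2 was the CONTROL library nearest to the HOXA13 mean in 79 members, or 43.2%, much as in all genes, at 44.1%. Without CONTROL 2, edgeR called 41 members, 28 higher and 13 lower, which is 22.4% where 14.2% of all genes tested were called. The 41 included Slc2a3, Slc16a1, Slc7a5, Slc1a5, Slc7a3, Slc6a14, Slc4a8, Slc40a1, Slc46a1, Slc6a6, Slc12a7 and Slc39a6. In that smaller comparison 56 members, or 30.6%, were higher and 44, or 24.0%, were lower without overlap, where 25.3% and 23.9% of all genes were. Summed, the epithelial and pluripotency markers of CONTROL 2 were above, and its mesenchymal and feeder markers below, those of CONTROL 1 and CONTROL 3. This did not hold for every single marker, with Krt18 and Wt1 among the exceptions. The part of these markers in the differences was not tested.

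**Figure D3:**
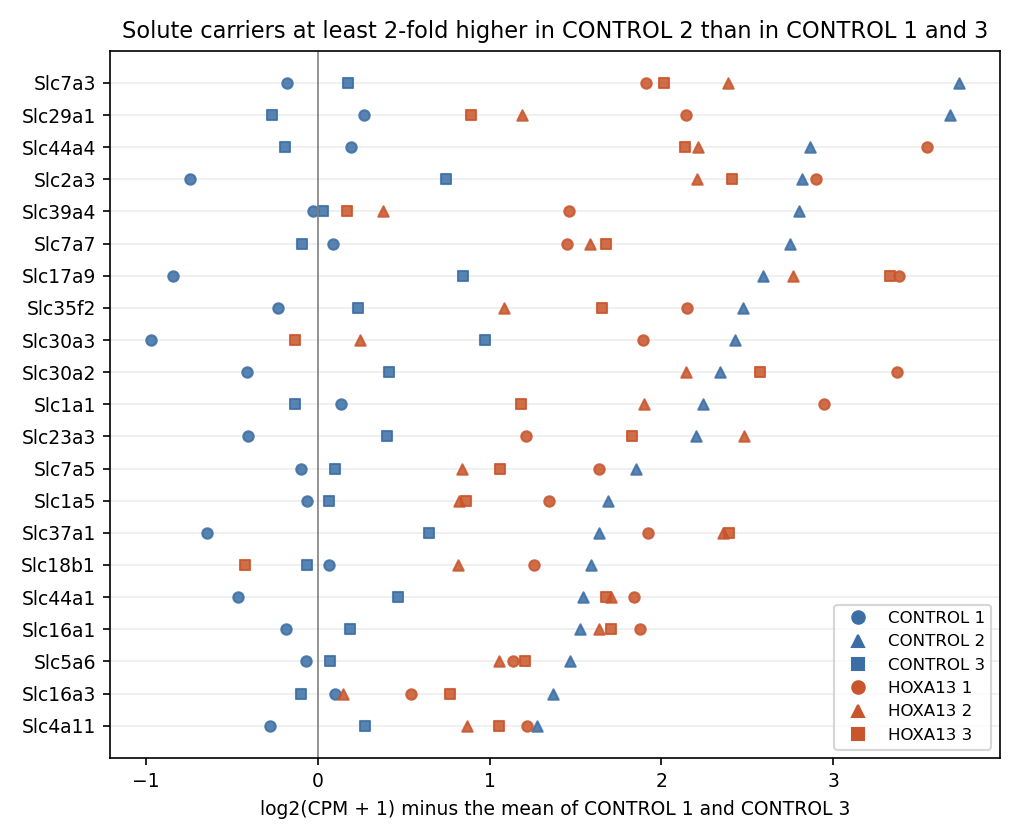
For the 21 carriers at least 2-fold higher in CONTROL 2 than in CONTROL 1 and CONTROL 3, the horizontal axis gives log2(CPM + 1) of each library minus the mean of CONTROL 1 and CONTROL 3; blue is CONTROL, orange is HOXA13, and the marker shape gives the replicate number. CONTROL 2 (blue triangles) lies among or above the HOXA13 libraries, except for Slc16a1, Slc17a9, Slc37a1 and Slc44a1, where it lies just below them, and in 19 of the 21 all HOXA13 libraries lie above CONTROL 1 and CONTROL 3.

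The genes of chromosome 1 are higher in HOXA13 as a group, and the carriers on it were therefore looked at apart. Of the 181 members with a position, 9 lie on chromosome 1, and all 9 were higher in HOXA13, 6 of them without overlap (43.5% of all tested genes of chromosome 1), with a median log2 fold change of 0.79. Among the other 172, 86 were higher and the median was 0.00. All 774 tested genes of chromosome 1 had a median of 0.51, and 82.7% of them were higher. With the median shift of each chromosome taken out, the 9 had a median of 0.21 and 6 were higher. Slc45a3, for which sugar transport has been described, went from 1.48 to 0.90, Slc40a1 from 1.43 to 0.84 and Slc30a1 from 1.15 to 0.56. Slc23a3, of the ascorbate carrier family and between 0.42 and 2.67 when each library was left out, went from 0.96 to 0.37, Slc4a3 from 0.79 to 0.21 and Slc39a10 from 0.76 to 0.18. Slc19a2 went from 0.51 to -0.07, Slc35f5 from 0.36 to -0.22 and Slc41a1, a magnesium carrier, from 0.19 to -0.38. The higher value of a carrier on this chromosome and that of its neighbours cannot be told apart here.

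**Figure D4:**
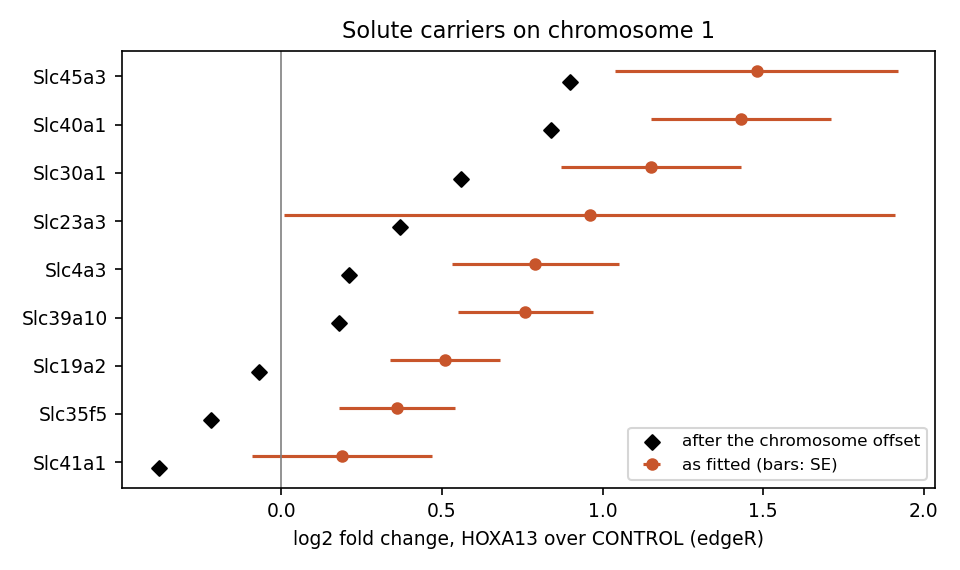
The 9 carriers on chromosome 1 by edgeR log2 fold change (horizontal axis, HOXA13 over CONTROL, 3 libraries each), as fitted (orange, bars are SE) and after the median shift of the chromosome was taken out (black). All 9 lie above 0 as fitted, and 6 of 9 do after the shift is removed, with Slc45a3 the farthest at 0.90.

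Of 26 listed carriers of the intestinal epithelium, most of them absorptive, 10 were members, and 7 of the 10 were higher, 5 of them without overlap (11.5% of all genes tested were higher without overlap). Their median log2 fold change was 0.69 with all libraries and 1.06 without CONTROL 2. Those 5 were Slc40a1, Slc46a1, Slc16a1, Slc12a2 and Slc27a4. DESeq2, which called 5.07% of all genes, called 3 of the 10, namely Slc40a1, Slc46a1 and Slc12a2, and edgeR called 0, with 4 at an unadjusted p under 0.05 (14.1% of all genes tested). Slc12a2 is known for chloride secretion rather than absorption, and without it, a choice made after its values were seen, 6 of 9 were higher, 4 of them without overlap, 2 were called by DESeq2 and the median was 0.35. Slc26a6, Slc5a8 and Slc39a4 had negative log2 fold changes of -0.43, -0.51 and -0.84, with overlap. Without CONTROL 2 the value was -0.67 for Slc26a6 and -0.85 for Slc5a8. Slc39a4, the zinc importer of the gut lumen, was at 6.52, 52.4 and 6.82 CPM in CONTROL, against 20.1, 8.96 and 7.64 CPM in HOXA13, so its negative value rested on CONTROL 2, and it was 0.85 without that library. Slc1a1, a glutamate carrier that entered through its HOXA13 counts, was at 0.567, 5.76 and 0.300 CPM in CONTROL, against 9.99, 4.33 and 2.24 CPM in HOXA13. Several defining carriers were at or near 0, as Slc5a1, the glucose cotransporter, had at most 8 counts in a library and Slc2a2, Slc10a2, Slc51b and Slc28a2 had 0 in each. The 6 listed carriers that were tested but were not members had at most 101 counts in a library. Their log2 fold changes were 3.67 for Slc15a1, the peptide carrier of the gut lumen, 1.36 for Slc3a1, 1.21 for Slc6a19, 1.20 for Slc34a2, 1.12 for Slc9a2 and -1.04 for Slc2a5, the fructose carrier. The summed CPM of the 10 members was 308, 569.9 and 343 in CONTROL and 749, 684 and 710.5 in HOXA13. The epithelial marker sum was likewise higher in every HOXA13 library than in every CONTROL library, with CONTROL 1 lowest and CONTROL 2 highest of the CONTROL libraries in both sums, and its part was not tested.

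Transport proteins outside the solute carrier numbering were counted in the same way. The 4 tested members of the Slco family of organic anion carriers had a median log2 fold change of 0.52 with 3 higher, and 1 of them, Slco5a1, at 2.50, passed the edgeR threshold with an adjusted p of 0.0470 (0.309% of all genes tested did). Slco5a1 lies on chromosome 1, and with the chromosome offset it was at 1.92 with an adjusted p of 0.105 in edgeR. The 32 ABC transporters had a median of 0.01 with 17 higher, and the 48 P-type and V-type ATPases had a median of -0.08 with 22 higher. In these last lists edgeR called 0, with 5 and 6 at an unadjusted p under 0.05 (14.1% of all genes tested), and DESeq2 called 1 and 5 (5.07% of all genes).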

How the data were processed

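RNA was measured in 6 libraries, whose titles give the group and the replicate number. Each deposited list holds the raw counts of 1 library by gene symbol. The authors made stranded poly-A libraries and, according to the submitters' processing notes, aligned the reads to mouse build mm9 with TopHat2 2.0.14 and counted them with HTSeq 0.6.1p1. The study's methods name a different TopHat version. The annotation used, the strand setting and the handling of multiply aligned reads are not given in the sources used here, so overlapping, antisense and closely related genes are uncertain. Of the members, only Slc22a5 and Slc22a21 share over 5% of their 75-base stretches with another gene, and 10 have over 10% of their exon bases overlapped.

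The analysis used edgeR 4.0.16 under R 4.3.3. The filterByExpr function (at least 10 counts, total at least 15) left 13600 genes, among them all 183 members. After TMM normalisation the groups were compared over all 6 samples by the quasi-likelihood test with no covariate. P-values were adjusted over all genes by the Benjamini-Hochberg method, with a threshold of 0.05. CPM use the TMM-scaled library sizes. Positions are those of GENCODE M1 on mm9 (181 members), and promoters those of RefSeq on GRCm38.p6. The alternatives were DESeq2 1.42.0, limma 3.58.1 voom with quality weights, RLE and upper quartile scaling, no filter, a filter on a mean of 50 counts, the method introduced with edgeR 4, the replicate number as a block, a limit of 2-fold, an offset of each chromosome's median (from genes averaging 16 CPM or more), and leaving out each library. The code was tested on simulated data.

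Members, classes and gene lists were chosen with earlier results of these data known. The named members are the 10 largest higher and 10 largest lower log2 fold changes among those with no overlap and a mean of at least 5 CPM, the member with the most reads in each class, a list of widely known carriers, and the members on chromosome 1. The rule also took every member past the edgeR threshold, of which there were 0. Members outside this rule were named after their values were seen.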

Additional observations from a re-analysis of the deposited data

How the results depend on the processing

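The number of members past the adjusted threshold was 0 in the edgeR test with RLE or upper quartile scaling, with a filter on a mean of 50 counts, with the chromosome offset and with a limit of 2-fold. It was 10 with DESeq2, 39 (30 higher, 9 lower), or 21.3% against 15.4% of all genes, with limma voom and quality weights, 1 (Slc6a14) with the method introduced with edgeR 4, and 2 (Slc40a1 and Slc4a8) with no filter. Leaving out each library gave 0 to 41, with 41 only without CONTROL 2. Members with no overlap between the groups were 36, and 100 without CONTROL 2, an alternative added after the data were seen. With all libraries, 13.1% of the members were higher and 6.56% lower without overlap, against 11.5% and 8.52% of all genes tested. Without CONTROL 2 these shares were 30.6% and 24.0% of the members, against 25.3% and 23.9% of all genes. The rise was thus not particular to carriers. Replicates of the same number did not on average deviate together (mean r of -0.128, from -0.271 to 0.0979, against a mean of 0.0724 for other numbers, across genes). The main test therefore did not treat the samples as paired. With 3 libraries per group, such values cannot exclude a batch shared by replicates of the same number. With the replicate number as a block, 0 members were called and 25 had an unadjusted p under 0.05 in edgeR. The share of all genes in that blocked fit is not given here, so the 25 cannot be set against it. In the blocked fit the median log2 fold change over the members was 0.06. Leaving out each library, without the block, moved that median between -0.03 and 0.02. Of the 47 named members, 34 kept their direction in all 15 alternatives and 13 did not in at least 1. With limma voom the log2 fold change was -0.03 for Slc11a2, 0.44 for Slc16a3, 0.02 for Slc38a2 and 2.07 for Slc7a3. With the chromosome offset it was -0.07 for Slc19a2, -0.22 for Slc35f5, -0.38 for Slc41a1 and 0.16 for Slc35e4. With the replicate block it was 0.05 for Slc16a3, 0.02 for Slc35e4 and 1.14 for Slc7a3, and with upper quartile scaling -0.01 for Slc25a5. Leaving out each library, it ran from -0.02 to 0.20 for Slc11a2, -0.30 to 0.08 for Slc12a4, -0.39 to 0.51 for Slc16a3, -0.09 to 1.04 for Slc1a5, -0.02 to 0.19 for Slc25a3, -0.16 to 0.37 for Slc25a5, -0.20 to 0.16 for Slc35e4, -0.34 to 0.19 for Slc38a2, -0.07 to 0.39 for Slc41a1, -0.79 to 2.42 for Slc7a3 and -0.04 to 1.20 for Slc7a5. The cause of these changes was not tested. At the depth of these libraries a level under 0.176 to 0.240 CPM cannot be shown.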
